A study of Mus musculus with 5 samples.

Results

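The 10 genes described here encode the machinery with which nearly every nucleated cell shows peptides on MHC class I molecules. They were the rows of the deposited count table whose gene symbol was H2-K1, H2-D1, B2m, Tap1, Tap2, Tapbp, Psmb8, Psmb9, Nlrc5 or Erap1, and all 10 were found among 28666 listed genes. RNA was measured in whole uteri of pseudopregnant ICR mice, an outbred stock, after mating with vasectomized C57BL/6 males, whose ejaculate carries seminal plasma (SP) without sperm. The aged-SP group had 2 libraries (replicates 1 and 4) from females caged with males that the methods describe as 12 to 18 months old. The young-SP group had 3 libraries (replicates 1, 2 and 4) from females caged with males of 12 to 14 weeks. The paper reports that a further young-SP sample was left out as an outlier in hierarchical clustering, so the spread of this group was measured without it. The females of both groups were 6 to 8 weeks old, and uteri were collected at 3.0 dpc according to the methods and at 3.5 days after caging according to the labels. The total count lay between 15071914 and 16728601 per library, which gave each of the 10 genes at least 229 counts in every library. Labels named separate samples without saying how females, males and cages were distributed, so the p-values measure the spread between these libraries only.

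In class I presentation, the proteasome cuts cytosolic proteins into peptides, and the transporter TAP carries these into the endoplasmic reticulum. There they are trimmed by an aminopeptidase and loaded, with the help of tapasin, onto a heavy chain paired with beta-2-microglobulin, and the complex then travels to the cell surface for inspection by CD8 T cells and NK cells. Interferons raise the transcription of most of these genes, and the uterine epithelium and leukocytes are both known to express them.

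The 7 genes Tapbp, H2-K1, Psmb9, Tap1, Psmb8, Tap2 and H2-D1 lie in the MHC on chromosome 17 of GRCm38, within 1.35 Mb. Psmb9 on the minus strand and Tap1 on the plus strand are divergent neighbours whose annotated ends overlap by 212 bases. Psmb8 starts 495 bases after the end of Tap1. B2m lies on chromosome 2, Erap1 on chromosome 13 and Nlrc5 on chromosome 8. Promoters of 8 of the 10 genes were matched in RefSeq (GRCm38.p6), and those of Tap2 and Nlrc5 were not. The windows of the 3 genes that encode the presented complex, and the interval shared by Psmb9 and Tap1, are shown because they lie before the genes whose levels and ratios are compared first and before the transporter and proteasome pair that shares a promoter region. The first 3 are the 200 bases before the RefSeq transcription start, and the last is the 225 bases between the start sites of Psmb9 and Tap1, read on the plus strand. Capitals mark matches on either strand to GGGGATTCC (a kappaB sequence), CCAAT (the Y box), and GAAANNGAAA (the core of the interferon-stimulated response element, ISRE), each written 5′ to 3′.
H2-K1, chr17:34000348-34000547, minus strand: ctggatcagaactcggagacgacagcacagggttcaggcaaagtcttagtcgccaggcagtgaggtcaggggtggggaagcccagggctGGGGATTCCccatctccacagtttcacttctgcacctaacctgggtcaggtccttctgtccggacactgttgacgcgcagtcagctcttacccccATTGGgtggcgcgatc
H2-D1, chr17:35262894-35263093, plus strand: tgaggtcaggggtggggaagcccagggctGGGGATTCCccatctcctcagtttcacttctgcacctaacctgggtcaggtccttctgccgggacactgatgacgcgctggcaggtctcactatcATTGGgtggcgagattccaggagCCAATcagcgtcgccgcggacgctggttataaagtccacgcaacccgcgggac
B2m, chr2:122147487-122147686, plus strand: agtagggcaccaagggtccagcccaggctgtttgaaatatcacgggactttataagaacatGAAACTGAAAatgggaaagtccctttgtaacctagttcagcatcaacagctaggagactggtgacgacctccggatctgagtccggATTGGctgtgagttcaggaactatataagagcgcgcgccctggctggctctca
Psmb9 to Tap1, chr17:34187331-34187555, plus strand: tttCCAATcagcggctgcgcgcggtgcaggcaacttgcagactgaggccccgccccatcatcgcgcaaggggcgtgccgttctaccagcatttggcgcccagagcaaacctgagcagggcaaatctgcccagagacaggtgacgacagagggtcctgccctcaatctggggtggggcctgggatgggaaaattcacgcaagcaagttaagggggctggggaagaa

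The windows of H2-K1 and H2-D1 share an identical stretch of 46 bases around the kappaB sequence, which begins 111 bases before the start of H2-K1 and 171 bases before that of H2-D1. Over the 250 bases before the start, the kappaB sequence was found in 2 of 8 member promoters and in 0.255% of 27025 genes. The ISRE core was found in B2m alone of the 8 members, 139 bases before the start, and in 3.46% of all genes. TTCNNNGAA, the core of the interferon-gamma activated site, was found 97 bases before the start of Psmb8 alone of the 8, and in 8.13% of all genes. CCAAT, the sequence bound by the NF-Y part of the complex that Nlrc5 works through, was found in B2m, H2-D1, H2-K1, Psmb9, Tap1 and Tapbp, 6 of the 8, against 37.5% of all genes. These matches describe the letters in the windows. Only exact matches to the given letters were counted. A promoter without a match, such as those of H2-K1 and H2-D1 for the ISRE core, can still hold a variant of the element. The window of H2-D1 lies inside the gene as deposited, whose annotation begins farther upstream than the RefSeq start. The interval from Psmb9 to Tap1 likewise lies inside Psmb9 as deposited.

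The level of each gene, as FPKM (fragments scaled to gene length and library total, as deposited), placed B2m first, with 1816 ± 607 FPKM (SD, n = 5 libraries). H2-D1 followed with 340 ± 156 FPKM, H2-K1 with 165 ± 78.9 FPKM and Tapbp with 43.7 ± 9.34 FPKM. Erap1, Psmb8, Tap1, Psmb9 and Tap2 lay between 14.8 and 7.45 FPKM on average, and Nlrc5 was lowest with 3.12 ± 1.54 FPKM. In this order, the ranges over the 5 libraries did not overlap between B2m and H2-D1, H2-K1 and Tapbp, Tapbp and Erap1, or Tap2 and Nlrc5. The ranges of all other neighbours overlapped, H2-D1 and H2-K1 among them. Together the members made up 0.213% to 0.438% of all counts, depending on the library.

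**Figure D1:**
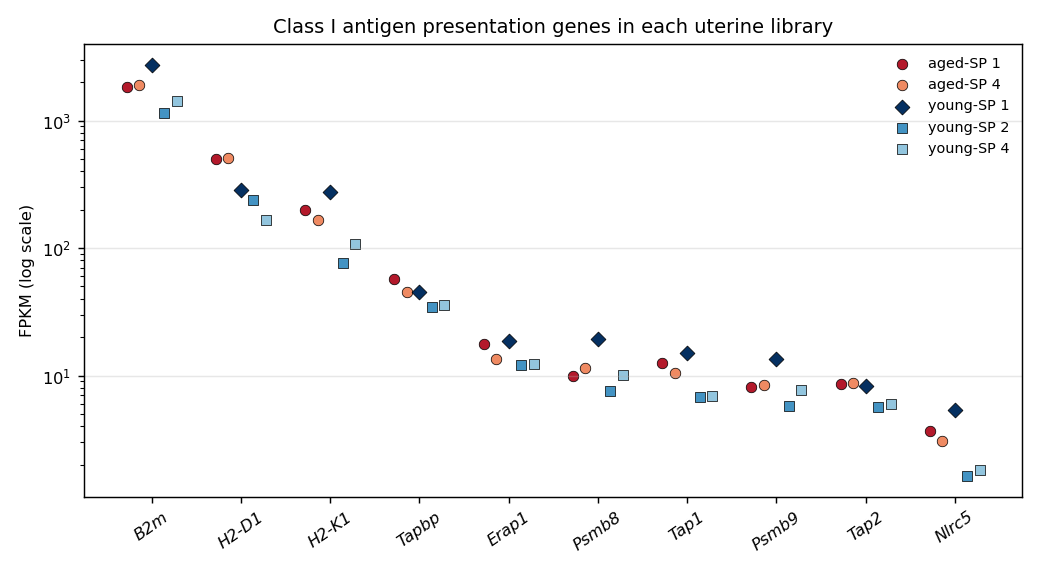
FPKM of the 10 genes in each library on a log scale, ordered by their mean level, with circles for the aged-SP and diamonds or squares for the young-SP libraries. Levels ran from 2752 FPKM for B2m in young-SP replicate 1 to 1.63 FPKM for Nlrc5 in young-SP replicate 2, and young-SP replicate 1 lay above both other young-SP libraries in each gene.

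Young-SP replicate 1 stood apart from the other young-SP libraries in these genes. Its level was above that of both others in 10 of 10 members, compared with 37.7% of all 17013 tested genes, and it was the highest of all 5 libraries in 7 of 10, compared with 20.6% of tested genes. The ratio of its CPM (counts scaled to the library total) to the mean of the other two ranged from 1.3 in Tapbp to 3.19 in Nlrc5, with a median of 2.09, while the median over all tested genes was 0.996. The fold change of each member is therefore given with and without this library. Each library was left out in turn, and the choice to give this one beside every gene was made after its values were seen.

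Between the groups, 0 of the 10 genes passed an adjusted p of 0.05 together with a log2 fold change beyond 1 in either direction (edgeR quasi-likelihood test, Benjamini-Hochberg adjustment over all tested genes), against 0.147% of the tested genes. H2-D1 and Tapbp, 2 of 10, reached an unadjusted p under 0.05 with the aged-SP group higher, as 9.62% of tested genes did, and 0 of 10 were lower. DESeq2 called 1 of the 10, H2-D1, at the same thresholds, against 3.6% of the genes it tested, and limma-voom called 0. In H2-D1, Tap2 and Tapbp, 3 of 10, both aged-SP libraries lay above all young-SP libraries, as in 19.5% of tested genes, and in 0 of 10 they lay below, as in 19.3%. The log2 fold change, aged-SP over young-SP, was positive in 8 members with a median of 0.23, and the median over all tested genes was 0.01. Fewer cells that express a gene and less RNA per cell cannot be told apart in whole uteri.

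Without young-SP replicate 1, the log2 fold change was positive in 10 of 10 members, with a median of 0.57, and the median over all tested genes was 0.00. H2-D1, Tap1 and Nlrc5, 3 of 10, were then higher in the aged-SP group at an adjusted p under 0.05 in the edgeR quasi-likelihood test, compared with 2.36% of the tested genes. H2-D1 alone, 1 of 10, also passed a log2 fold change of 1. In either direction, 578 of 16745 tested genes passed both thresholds in this fit. The groups did not overlap in 9 of 10 members, all but Psmb8, with the aged-SP libraries higher, as in 28.5% of tested genes. Young-SP replicate 1 was above both other young-SP libraries in 10 of 10 members, so leaving it out had to raise each fold change. The tested genes as a whole were not picked for a high level in that library, so their shares are not a like comparison.

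**Figure D2:**
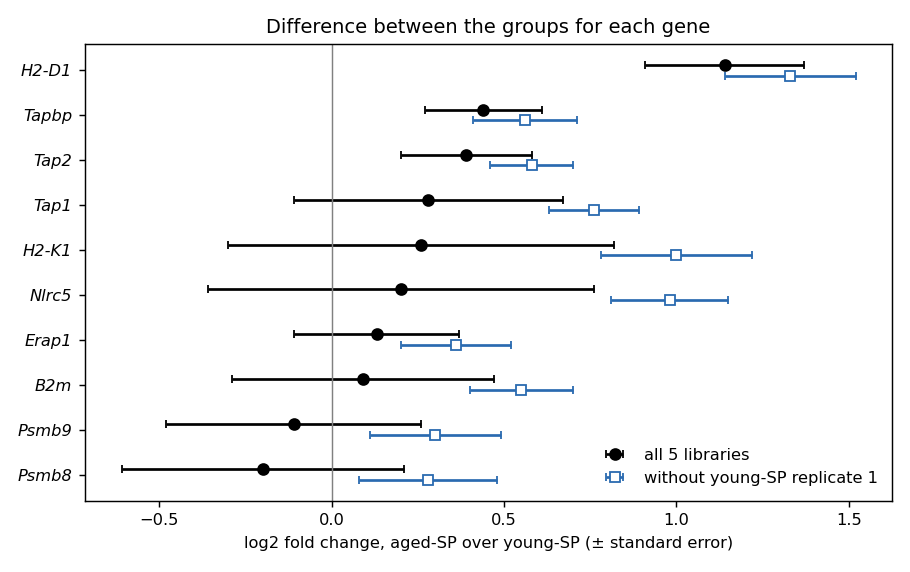
Log2 fold change of each gene, aged-SP over young-SP, on the x axis, with bars of 1 standard error, from the edgeR fit to all 5 libraries (filled circles) and without young-SP replicate 1 (open squares). H2-D1 lay farthest to the right with 1.14 with all libraries. Each of the 10 values was larger without young-SP replicate 1, which follows from its level above both other young-SP libraries in each gene.

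Of the heavy chains, the polymorphic chains that bind the peptide, H2-D1 showed the largest difference between the groups of the 10 genes. H2-D1 (chr17:35262730-35267499) had 1309 and 1306 CPM in aged-SP replicates 1 and 4, and 748, 607 and 427 CPM in young-SP replicates 1, 2 and 4. The aged-SP libraries were close to each other and above all 3 young-SP libraries, among which young-SP replicate 1 was highest. The means were 1307 ± 2.50 CPM (SD, n = 2) and 594 ± 161 CPM (SD, n = 3), and the fold was 2.2 (log2 fold change 1.14, SE 0.23, edgeR quasi-likelihood unadjusted p = 0.00331, Benjamini-Hochberg adjusted p = 0.104). The adjusted p was 0.000271 in DESeq2 and 0.106 in limma-voom, and without young-SP replicate 1 it was 0.0322 in edgeR with a log2 fold change of 1.33 (SE 0.19).

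H2-K1 (chr17:33996017-34000333), the other classical heavy chain in the table, did not follow H2-D1 across the libraries. It had 528 and 431 CPM in the aged-SP libraries, and 727, 194 and 282 CPM in young-SP replicates 1, 2 and 4. Young-SP replicate 1 was the highest of the 5 libraries and replicates 2 and 4 the lowest, so that the groups overlapped. The log2 fold change was 0.26 (SE 0.56, edgeR quasi-likelihood adjusted p = 0.839), with an interval at the 95% level from -1.14 to 1.65. Without young-SP replicate 1 it was 1.0 (SE 0.22, edgeR adjusted p = 0.0786).

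The ratio of H2-D1 to H2-K1, per length, was 2.51 and 3.06 in the aged-SP libraries, and 1.04, 3.16 and 1.53 in young-SP replicates 1, 2 and 4. The groups overlapped, since young-SP replicate 2 had the highest and young-SP replicate 1 the lowest ratio. The log2 difference between the group means was 0.69 (exact two-sided permutation test, p = 0.6, adjusted p = 0.8 over 4 ratios), and the smallest p that 2 against 3 libraries allow is 0.1. This difference turned on single libraries, being 0.33 when young-SP replicate 1 was left out and 1.14 when replicate 2 was. The 4 ratios among members were chosen after the values were seen. Of the counts of 20 listed H2 class I genes, H2-D1 held 60.0% and 62.0% in the aged-SP libraries and 39.2%, 63.1% and 49.0% in young-SP replicates 1, 2 and 4. H2-D1 and H2-K1 together held between 77.4% and 84.2%. The summed level of these H2 genes was 2182 and 2104 CPM in the aged-SP libraries and 1907, 963 and 873 CPM in the young-SP libraries.

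Of the 50-base stretches of the H2-D1 transcripts, 14.3% also occur in transcripts of other genes, most of them in H2-Q1, and of those of H2-K1 8.79% do, most of them in H2-D1. Reads from such stretches can be split between genes. The females are of an outbred stock and the reads were aligned to the reference genome. What the alleles of single females add to these counts was not tested.

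B2m (chr2:122147686-122153083) encodes beta-2-microglobulin, the invariant light chain that pairs with the classical class I heavy chains. It had 1599 and 1649 CPM in the aged-SP libraries, and 2385, 974 and 1229 CPM in young-SP replicates 1, 2 and 4. The aged-SP libraries lay between young-SP replicate 1 and the other young-SP libraries. For B2m the log2 fold change was 0.09 (SE 0.38, edgeR quasi-likelihood adjusted p = 0.923), with an interval at the 95% level from -0.87 to 1.04, and without young-SP replicate 1 it was 0.55 (SE 0.15, edgeR adjusted p = 0.115). Its transcripts share 0% of their 50-base stretches with other genes.

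Per length, the ratio of H2-D1 to B2m was 0.273 and 0.264 in the aged-SP libraries, and 0.105, 0.208 and 0.116 in the young-SP libraries, all 3 of which were lower. The log2 difference was 0.98 (exact two-sided permutation test, p = 0.2, adjusted p = 0.8 over 4 ratios), and 0.79 without young-SP replicate 1. The ratio of H2-K1 to B2m overlapped between the groups, with 0.109 and 0.0862 in the aged-SP libraries and 0.101, 0.0657 and 0.0758 in the young-SP libraries. Its log2 difference was 0.29 (exact two-sided permutation test, p = 0.4, adjusted p = 0.8), and it ranged from 0.12 without aged-SP replicate 1 to 0.46 when young-SP replicate 1 was left out, with 0.15 when replicate 2 was and 0.45 without aged-SP replicate 4.

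**Figure D3:**
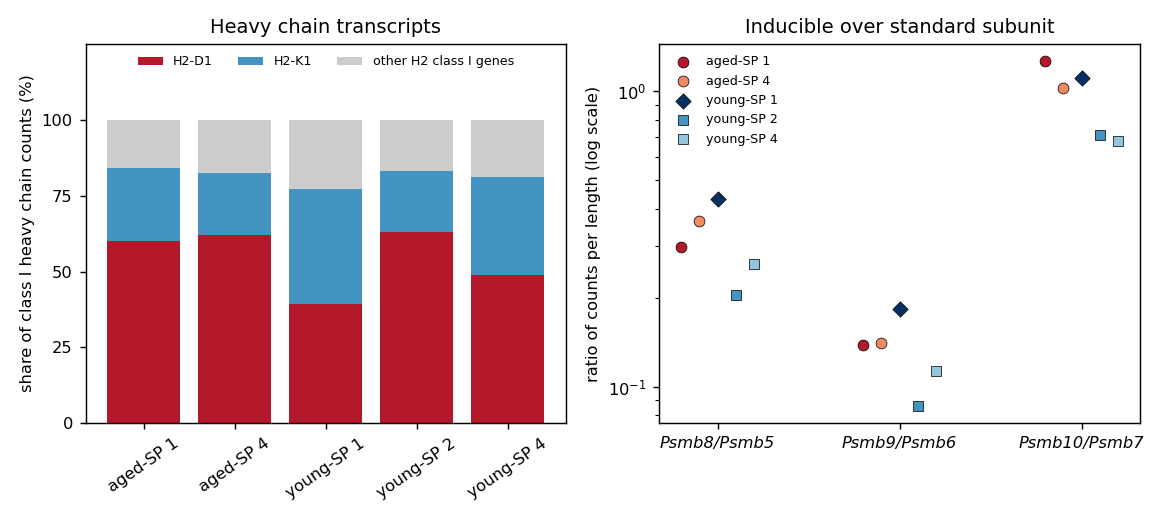
Left, share of the counts of 20 H2 class I heavy chain genes, in percent, that fell to H2-D1, H2-K1 and the others in each library. Right, ratio of each inducible proteasome subunit to its standard counterpart in each library, per length and on a log scale. H2-D1 took its smallest share, 39.2%, in young-SP replicate 1, where the Psmb8 and Psmb9 ratios were highest.

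Tap1 and Tap2 encode the subunits of the peptide transporter. Tap1 (chr17:34187553-34197225) had 69.3 and 57.8 CPM in the aged-SP libraries, and 82.9, 36.5 and 37.8 CPM in young-SP replicates 1, 2 and 4. Young-SP replicate 1 was again the highest library and the other young-SP libraries were the lowest. The log2 fold change of Tap1 was 0.28 (SE 0.39, edgeR quasi-likelihood adjusted p = 0.737) with all libraries and 0.76 (SE 0.13, edgeR adjusted p = 0.0432) without young-SP replicate 1.

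Tap2 (chr17:34203527-34216321) varied less, with 32.9 and 33.1 CPM in the aged-SP libraries and 31.5, 21.2 and 22.7 CPM in young-SP replicates 1, 2 and 4. The groups did not overlap, although young-SP replicate 1 came close to the aged-SP libraries. For Tap2 the log2 fold change was 0.39 (SE 0.19, edgeR quasi-likelihood adjusted p = 0.343), with an interval at the 95% level from -0.09 to 0.88, and without young-SP replicate 1 it was 0.58 (SE 0.12, edgeR adjusted p = 0.0728). The ratio of Tap1 to Tap2, per length, was 1.46 and 1.21 in the aged-SP libraries, and 1.82, 1.19 and 1.15 in the young-SP libraries. It differed by -0.03 on the log2 scale (exact two-sided permutation test, p = 1, adjusted p = 1 over 4 ratios), and by 0.18 without young-SP replicate 1. Gm15821 and Gm20496, on the opposite strand, overlap 18.5% of the exonic bases of Tap2.

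Tapbp (chr17:33915899-33929288) encodes tapasin, which bridges the transporter and the empty class I molecule and edits the bound peptide. It had 192 and 150.4 CPM in the aged-SP libraries, and 149.6, 110 and 120 CPM in young-SP replicates 1, 2 and 4. The groups did not overlap, but aged-SP replicate 4 and young-SP replicate 1 were nearly equal. Tapbp differed by a log2 fold change of 0.44 (SE 0.17, edgeR quasi-likelihood unadjusted p = 0.0495, adjusted p = 0.263), and without young-SP replicate 1 it was 0.56 (SE 0.15, edgeR adjusted p = 0.113). Other genes, Gm19412 on the opposite strand and Zbtb22, overlap 29% of the exonic bases of Tapbp. The library kit does not mark strand, so reads of a gene and of its opposite-strand partner cannot be told apart in these stretches.

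Psmb8 and Psmb9 encode inducible catalytic subunits, which replace the standard subunits encoded by Psmb5 and Psmb6 in the immunoproteasome. Psmb8 (chr17:34197721-34201454) had 27.3 and 31.7 CPM in the aged-SP libraries, and 53.3, 20.3 and 27.8 CPM in young-SP replicates 1, 2 and 4. Psmb9 (chr17:34181988-34187764) had 30.0 and 30.7 CPM in the aged-SP libraries, and 49.4, 20.6 and 28.4 CPM in young-SP replicates 1, 2 and 4. Both genes were highest in young-SP replicate 1 and lowest in young-SP replicate 2, and the groups overlapped. They were the members with a negative log2 fold change, -0.20 (SE 0.41, edgeR quasi-likelihood adjusted p = 0.832) for Psmb8 and -0.11 (SE 0.37, edgeR quasi-likelihood adjusted p = 0.896) for Psmb9. Without young-SP replicate 1 the values were 0.28 (SE 0.20, edgeR adjusted p = 0.465) and 0.30 (SE 0.19, edgeR adjusted p = 0.417). Gm20496, on the opposite strand, overlaps 14.7% of the exonic bases of Psmb8, and Psmb9 and Tap1 overlap each other in 5.79% and 3.87% of theirs.

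The ratio of Psmb8 to Psmb5, per length, was 0.297 and 0.365 in the aged-SP libraries, and 0.433, 0.205 and 0.261 in young-SP replicates 1, 2 and 4. That of Psmb9 to Psmb6 was 0.138 and 0.140 in the aged-SP libraries, and 0.183, 0.0860 and 0.113 in the young-SP libraries. In both ratios the aged-SP libraries lay between young-SP replicate 1 and the other young-SP libraries. The log2 differences were 0.21 and 0.20 (exact two-sided permutation tests, p = 0.8 each, adjusted p = 0.8 over 3 ratios). With young-SP replicate 1 left out they were 0.51 and 0.50, and with replicate 2 left out they turned to -0.03 and -0.05. For Psmb10, the remaining inducible subunit, over Psmb7, the ratios were 1.26 and 1.02 in the aged-SP libraries, and 1.11, 0.712 and 0.677 in the young-SP libraries, which overlapped, with a log2 difference of 0.49 (exact two-sided permutation test, p = 0.4, adjusted p = 0.8), and 0.71 without young-SP replicate 1.

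Erap1 (chr13:74639568-74693201) encodes the aminopeptidase that trims peptides in the endoplasmic reticulum. It had 131 and 97.7 CPM in the aged-SP libraries, and 136 (young-SP replicate 1), 86.3 and 90.8 CPM in the young-SP libraries. The groups overlapped through young-SP replicate 1. Erap1 had a log2 fold change of 0.13 (SE 0.24, edgeR quasi-likelihood adjusted p = 0.812), and without that library it was 0.36 (SE 0.16, edgeR adjusted p = 0.283). Cast, on the opposite strand, overlaps 11.5% of the exonic bases of Erap1.

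Nlrc5 (chr8:94434356-94527272) encodes the transactivator that drives transcription of class I genes, and it was the member with the lowest level per length. It had 31.6 and 26.1 CPM in the aged-SP libraries, and 46.2, 13.5 and 15.4 CPM in young-SP replicates 1, 2 and 4. Young-SP replicate 1 exceeded both aged-SP libraries, which exceeded the other young-SP libraries. Its log2 fold change was 0.20 (SE 0.56, edgeR quasi-likelihood adjusted p = 0.876), with an interval at the 95% level from -1.20 to 1.61, and without young-SP replicate 1 it was 0.98 (SE 0.17, edgeR adjusted p = 0.0465). H2-K1 and Nlrc5 were the members in which young-SP replicate 1 exceeded the mean of the other young-SP libraries most, by 3.05 and 3.19 times.

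Averaged over the 10 members, log2 CPM minus each gene's mean over the 5 libraries was 0.28 and 0.15 in aged-SP replicates 1 and 4, and 0.51, -0.56 and -0.38 in young-SP replicates 1, 2 and 4. Tap1 followed this average most closely, with a root mean square difference of 0.0865 over the 5 libraries, and H2-D1 least, with 0.484. H2-D1 was above this average in both aged-SP libraries (0.71 and 0.70) and in young-SP replicate 2 (-0.40), and below it in young-SP replicates 1 (-0.10) and 4 (-0.91). Among 10993 other genes with a mean of at least 10 CPM, those nearest to the average were Srgn (0.0547), Ptprj (0.0557), Samhd1 (0.0578), Irf9 (0.0630) and Adar (0.0690), all as root mean square differences over 5 libraries. Irf9, a subunit of the factor that binds the ISRE, had 80.1 and 73.6 CPM in the aged-SP libraries and 96.3, 43.5 and 45.7 CPM in young-SP replicates 1, 2 and 4.

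**Figure D4:**
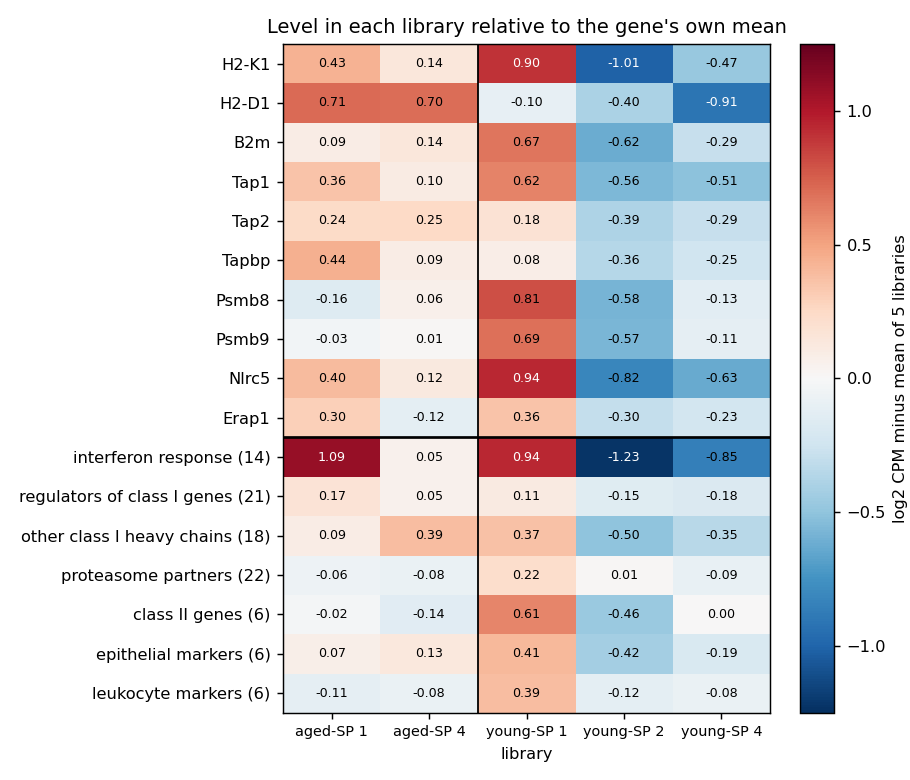
Log2 CPM minus the mean of the 5 libraries, as colour and number, for each of the 10 genes (above the line) and as the mean over the tested genes of 7 lists (below, with the number of genes). Most members were above their mean in young-SP replicate 1 (0.94 for Nlrc5) and below it in young-SP replicates 2 and 4, and H2-D1 was above its mean in the aged-SP libraries (0.71 and 0.70) and not in young-SP replicate 1.

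The wider pathway was described by lists of its other genes, in which 0 genes were called by edgeR with all 5 libraries. Of 28 other class I heavy chains, 23 were found in the table and 18 tested. H2-Q2 (log2 fold change 1.62, SE 0.52, edgeR quasi-likelihood unadjusted p = 0.0224, adjusted p = 0.195) and Hfe (0.49, SE 0.18, unadjusted p = 0.0366, adjusted p = 0.235), 2 of 18, were higher at an unadjusted p under 0.05, and 0 were lower. The share of all tested genes that were higher at this p was 9.62%. Without young-SP replicate 1, H2-Q2 and Hfe had log2 fold changes of 2.03 (edgeR adjusted p = 0.0936) and 0.59 (edgeR adjusted p = 0.129). The median log2 fold change was 0.33 over this list and 0.01 over all tested genes, and without young-SP replicate 1 it was 0.59 with 3 of 17 genes, H2-T23, H2-T24 and H2-Q7, higher at an edgeR adjusted p under 0.05, against 2.36% of the tested genes. H2-T23, which encodes the nonclassical chain Qa-1 that NK cell receptors read, had 110 and 94.7 CPM in the aged-SP libraries and 104, 25.9 and 24.8 CPM in young-SP replicates 1, 2 and 4. As in H2-K1 and Nlrc5, young-SP replicate 1 was near the aged-SP libraries or above them. H2-T23 shares 29.8% of its 50-base stretches with other genes, so its counts are less certain.

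Of 12 partners in peptide loading and trimming, 11 were tested, among them the chaperones Calr and Canx. Thop1, a cytosolic peptidase that degrades class I peptides, was lower at an unadjusted p under 0.05 (log2 fold change -0.39, SE 0.10, edgeR quasi-likelihood unadjusted p = 0.00784, adjusted p = 0.134), and 0 were higher. At this unadjusted p, 1592 of 17013 tested genes were lower. The log2 fold change of Thop1 was also -0.39 without young-SP replicate 1 (edgeR adjusted p = 0.125). The list's median was 0.05, and 0.22 without that library. All 22 proteasome partners were tested, and 0 had an unadjusted p under 0.05 in either direction. Their median log2 fold change was -0.15, and -0.10 without young-SP replicate 1. In 10 of 22, Psmb5, Psmb6 and Psmb7 among them, both aged-SP libraries lay below all young-SP libraries, compared with 19.3% of all tested genes. In 19 of the 22 young-SP replicate 1 was the highest library, compared with 20.6%.

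Of 23 regulators of class I genes, 21 were tested and 4 were higher at an unadjusted p under 0.05. These were Rfxap, a subunit of the RFX complex that binds class I and class II promoters (log2 fold change 0.37, edgeR quasi-likelihood adjusted p = 0.176), Ifnar2, a chain of the type I interferon receptor (0.35, adjusted p = 0.177), Rela, an NF-kappaB subunit (0.37, adjusted p = 0.179), and Irf2 (0.36, adjusted p = 0.242). Of all tested genes, 9.62% were higher at that unadjusted p. In 5 of the 21 regulators both aged-SP libraries lay above all young-SP libraries and in 3 below, against 19.5% and 19.3% of tested genes. The list's median was 0.22, and without young-SP replicate 1 it was 0.28. Irf9 and Stat2 were then higher at edgeR adjusted p-values of 0.0295 and 0.0377, and 2.36% of tested genes were higher at an adjusted p under 0.05. Ifng and Ifnb1 were too low to be tested. Of the 6 class II genes, set beside class I, 0 had an unadjusted p under 0.05, and all 6 were highest in young-SP replicate 1. Their median log2 fold change was -0.07, and 0.09 without that library.

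Genes of the interferon response had their highest summed levels in the same 3 libraries as the members. All 14 listed genes were higher in young-SP replicate 1 than in both other young-SP libraries, and their summed level was 1015 and 643 CPM in the aged-SP libraries and 1113, 279 and 356 CPM in young-SP replicates 1, 2 and 4. Their log2 fold changes were positive in 14 of 14, with a median of 0.59, and Mx1 alone had an unadjusted p under 0.05 (log2 fold change 1.78, SE 0.70, edgeR quasi-likelihood unadjusted p = 0.0473, adjusted p = 0.258). Without young-SP replicate 1, the median was 1.61 and 6 of 14 were higher at an edgeR adjusted p under 0.05, against 2.36% of the tested genes, Isg15 (0.0247), Ifit3 (0.0279) and Mx1 (0.0351) among them. Since all 14 were higher in that library than in both other young-SP libraries, leaving it out had to raise these fold changes. The part of this response in the levels of the class I genes was not tested.

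Markers of the cell types that a uterus holds differed between the libraries as well. Epcam, the first epithelial marker, had 262 and 235 CPM in the aged-SP libraries and 281, 76.6 and 87.1 CPM in young-SP replicates 1, 2 and 4, and all 6 epithelial markers were higher in young-SP replicate 1 than in the other young-SP libraries. Their log2 fold changes between the groups were mixed, with 0.75 for Epcam, 0.19 for Cdh1 and 0.38 for Krt18, and -0.15 for Krt8, -0.42 for Krt19 and -0.12 for Cldn4. The 6 summed to 1072 and 1150 CPM in the aged-SP and to between 733 and 1402 CPM in the young-SP libraries. All 6 general leukocyte markers were likewise higher in young-SP replicate 1, with sums of 330 and 352 CPM in the aged-SP libraries and 459, 322 and 334 CPM in young-SP replicates 1, 2 and 4. All 6 macrophage markers were too, with 484 and 762 CPM in the aged-SP libraries and 792, 399 and 571 CPM in the young-SP libraries. Of 6 dendritic cell, 6 endothelial and 6 myometrial markers, 2, 0 and 0 were higher in young-SP replicate 1 than in both other young-SP libraries, compared with 37.7% of all tested genes. The dendritic cell markers summed to 49.81 and 54.75 CPM in the aged-SP libraries and to 44.66, 60.12 and 46.73 CPM in young-SP replicates 1, 2 and 4. The 6 gland markers summed to 2632 and 2166 CPM in the aged-SP and to between 42.7 and 419 CPM in the young-SP libraries, and Prss29 made up most of the aged-SP sums, with 2458 and 2137 CPM against 385, 2.96 and 11.6 CPM in young-SP replicates 1, 2 and 4. Foxa2, a transcription factor of uterine glands, had a log2 fold change of -0.02, Spink1 was high in aged-SP replicate 1 alone (153 CPM, against 12.2 CPM in aged-SP replicate 4), and Cxcl15 and Ttr were lower in both aged-SP libraries. The 7 stromal markers summed to 8281 and 8896 CPM in the aged-SP and to between 12760 and 16340 CPM in the young-SP libraries. Of these markers, 5 had an unadjusted p under 0.05 with the aged-SP group lower, compared with 1592 of 17013 tested genes. Hoxa10, a homeobox gene that marks uterine tissue, lay between 437 and 519 CPM in all libraries. Neutrophil markers summed to 218 CPM in young-SP replicate 1 and to between 31.0 and 103 CPM in the other libraries. These markers were mixed. S100a8, S100a9 and Csf3r were highest in young-SP replicate 1, Mpo (1.69 CPM) and Retnlg (8.63 CPM) were lowest there, and Ly6g was highest in aged-SP replicate 4. T cell, NK cell and B cell markers were low, with sums of at most 24.5, 78.4 and 6.63 CPM in any library. The median log2 fold change of the 6 NK cell markers was -0.83, with 6 of 6 negative. Ncr1 and Eomes, 2 of 6, were lower at an unadjusted p under 0.05, compared with 1592 of 17013 tested genes. Among the 6 T cell markers, 2 were also lower at this p, Cd3d (log2 fold change -1.13) and Cd3g (-1.11). The T cell markers were mixed, with 2 of 6 positive, Cd4 (0.54) and Trac (0.56). The part of cell makeup in the class I levels was not tested.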

How the data were processed

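Uterine RNA libraries of the aged-SP (n = 2) and young-SP (n = 3) groups were assigned from the sample labels, which give no batch. Per the methods and the submitters' processing notes, reads were aligned with HISAT2 2.1.0 and the tools listed also include HTSeq 0.6.0 and Bowtie2 2.2.3. The authors deposited an unnormalized count per gene and library and the FPKM made from it, which was used here for levels only. The deposited mean signal after DESeq2 scaling was not used. The log2 fold changes, p-values and adjusted p-values that the authors deposited come from their own DESeq2 comparison and were not used. Positions of 26998 of 28666 genes equal those of GENCODE M21 on GRCm38, and all 10 members lay within 100 bases.

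Counts were filtered with filterByExpr (17013 genes tested) and scaled by TMM (factors 0.990 to 1.02), and tested in edgeR 4.0.16 (glmQLFit, then glmQLFTest, R 4.3.3) with Benjamini-Hochberg adjustment over all tested genes. The biological coefficient of variation was 25.1%, and intervals used 5.55 degrees of freedom. CPM are counts scaled to the library total after TMM. DESeq2 1.42.0, limma-voom (limma 3.58.1), DESeq2 size factors, library size alone, no filter, at least 10 counts in every sample, edgeR with legacy = FALSE, a replicate block, a pseudocount of 1 count for the ratios and each library left out were alternatives. Calls by the adjusted p alone without young-SP replicate 1 or with DESeq2 were added after seeing the data. Ratios were compared by exact permutation with scipy 1.17.1. All 10 pairs of libraries differed by more than counting error (chi-square per degree of freedom 18.5 to 90.1).

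The 10 members and the lists were chosen with earlier results of these data known. All members are described, and from each list up to 4 genes with the smallest unadjusted p and the first 2 markers could be named. H2-T24, Stat2 and Mpo, and Psmb5, Psmb6 and Psmb7 as a group that did not overlap, were named after their values were seen. The promoters of Tap2 and Nlrc5 and proteins were not analysed here.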

Additional observations from a re-analysis of the deposited data

How the results depend on the processing

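The 10 members had 80 values under other settings of the fit, of which 79 had the same direction as reported. The exception was B2m, with a log2 fold change of -0.08 in the fit with a replicate block. The replicate block changed no call (0 members called) and gave H2-D1 a log2 fold change of 1.21 (edgeR adjusted p = 0.197). The groups share only the replicate numbers 1 and 4, whose deviations from the group means correlated at 0.152 and 0.136, and nothing says what a number marks. The number of members called was 1 with DESeq2, 1 with DESeq2 by the adjusted p alone, and 3 by the adjusted p alone without young-SP replicate 1. With each library left out it ranged from 0 to 1. The number with an unadjusted p under 0.05 was 1 with DESeq2 size factors. It was 7 when young-SP replicate 1 was left out, and 1 when replicate 2 or replicate 4 of that group was. The share of all tested genes under this p was not counted in the fit that gave 7. Whether 7 of 10 exceeds that share is therefore not known. At an adjusted p under 0.05, 3 of the 10 members were higher in the same fit, against 2.36% of tested genes, which were not picked for a high level in young-SP replicate 1. The median log2 fold change of the members ranged from -0.04, when young-SP replicate 2 was left out, to 0.57 over the left-out libraries. Over all alternatives, the adjusted p of H2-D1 ranged from 0.000271 to 0.314.

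Of the 50 member values with a library left out, 8 were reversed, in 6 members. The log2 fold change ranged from -0.08 to 1.0 in H2-K1, from -0.16 to 0.55 in B2m, from -0.46 to 0.28 in Psmb8, from -0.36 to 0.30 in Psmb9, from -0.10 to 0.98 in Nlrc5 and from -0.10 to 0.36 in Erap1. H2-D1 (0.94 to 1.33), Tap1, Tap2 and Tapbp kept their direction. The log2 difference ranged from -0.03 to 0.51 in the ratio of Psmb8 to Psmb5, from -0.05 to 0.50 in that of Psmb9 to Psmb6, from 0.34 to 0.71 in that of Psmb10 to Psmb7, and from -0.17 to 0.18 in that of Tap1 to Tap2, with 0.10 without aged-SP replicate 4. For the ratios of H2-D1 to H2-K1, H2-D1 to B2m and H2-K1 to B2m it ranged from 0.33 to 1.14, from 0.79 to 1.29 and from 0.12 to 0.46. Where an aged-SP library was left out, the lone library was assumed to vary like the young-SP group. Each member had at least 229 counts per library, so that counting error was small beside the biological coefficient of variation of 25.1%.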
